A study of Mus musculus with 6 samples.

Results

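The 10 genes described here code for the ligands and receptors of vascular endothelial growth factor (VEGF) and angiopoietin signalling. They are the VEGF family ligands *Vegfa*, *Vegfb* and *Pgf*, the VEGF receptors *Flt1*, *Kdr* and *Nrp1*, the angiopoietins *Angpt1* and *Angpt2*, and the Tie receptors *Tek* and *Tie1*. They were chosen by name, as the core of the pathway, among 19938 genes that had a probe set annotated to exactly 1 symbol, and each of the 10 had 1 such probe set. RNA was measured in whole lungs of 3 WT and 3 *Tnrc6a* null mouse embryos at E18.5, on a C57Bl/6 strain background, with 1 embryo on each Affymetrix whole-transcript gene array. The null embryos carried, on both copies of *Tnrc6a*, a gene trap that inserts β-galactosidase into the locus. The insertion is present in all cells of the embryo from the start of development, and the WT embryos were without the trap. *Tnrc6a* codes for GW182, a partner of Argonaute proteins in silencing by miRNAs. The comparison asks whether transcripts of the vascular growth factor pathway differ in level between lungs with and without this gene shortly before birth.

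VEGF ligands are secreted dimers that bind receptor tyrosine kinases on endothelial cells, and VEGF-A is made by the lung epithelium and mesenchyme while capillaries form around the future alveoli. KDR carries most of the mitogenic signal, FLT1 binds VEGF-A tightly and limits its access to KDR, and NRP1 is a coreceptor that also binds class 3 semaphorins. The angiopoietins act on TEK, another endothelial kinase: ANGPT1, from mesenchymal cells and pericytes, activates it and steadies vessels, ANGPT2, from endothelial cells themselves, counters or replaces ANGPT1 depending on context, and TIE1 pairs with TEK without a high-affinity ligand of its own.

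Levels are given on the log scale of the deposited table. The labels name 2 as its base, which could not be settled from the sources used here, so differences are printed as *Tnrc6a* null minus WT on that scale and not as folds. The targeted gene, *Tnrc6a*, read 7.38, 7.13 and 7.18 in WT and 5.45, 5.04 and 5.40 in null lungs, a difference of -1.93 ± 0.128 (SE), and limma with Benjamini-Hochberg adjustment over all genes gave an adjusted p of 0.00312. It fell in the null lungs and was the only gene of the 19938 called at an adjusted p under 0.05, which is 0.00502% of them. Without WT replicate 3 its adjusted p from limma was 0.0552. Array medians lay between 4.98 and 5.03, and pairs of arrays correlated at 0.979 to 0.993 across genes. WT replicate 1 and null replicate 3, of opposite genotype, correlated at 0.992, as did WT replicate 2 and null replicate 2. Both WT replicate 1 and null replicate 3 stood low for several of the genes below. In whole lung, fewer cells of a type and less RNA per cell cannot be told apart. No label gives the litter of a lung, and the p-values measure the spread between these 6 embryos.

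None of the 10 genes was called at an adjusted p under 0.05. *Angpt1*, *Nrp1* and *Tie1* had an unadjusted p under 0.05 in limma, and in each of them all 3 null lungs lay below all 3 WT lungs. That is 3 of 10, where 5.42% of all genes had an unadjusted p under 0.05 and 2.96% had one with a lower mean in the null lungs. The genotypes did not overlap for 10.2% of all genes, and for 5.51% of all genes they did not overlap with the null lungs lower. The null mean was below the WT mean for 8 of the 10 genes, the exceptions being *Vegfb* and *Pgf*, and 50.8% of all genes had a lower null mean. The median difference of the 10 was -0.10 (-0.19 without WT replicate 1), with a median of 0.00 over all genes. All but *Pgf* and *Angpt2*, which makes 8 genes, had a mean signal above that of the median gene. Among the 9967 genes above the median, 66.5% had a lower null mean and 9.43% were lower with no overlap.

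**Figure D1:**
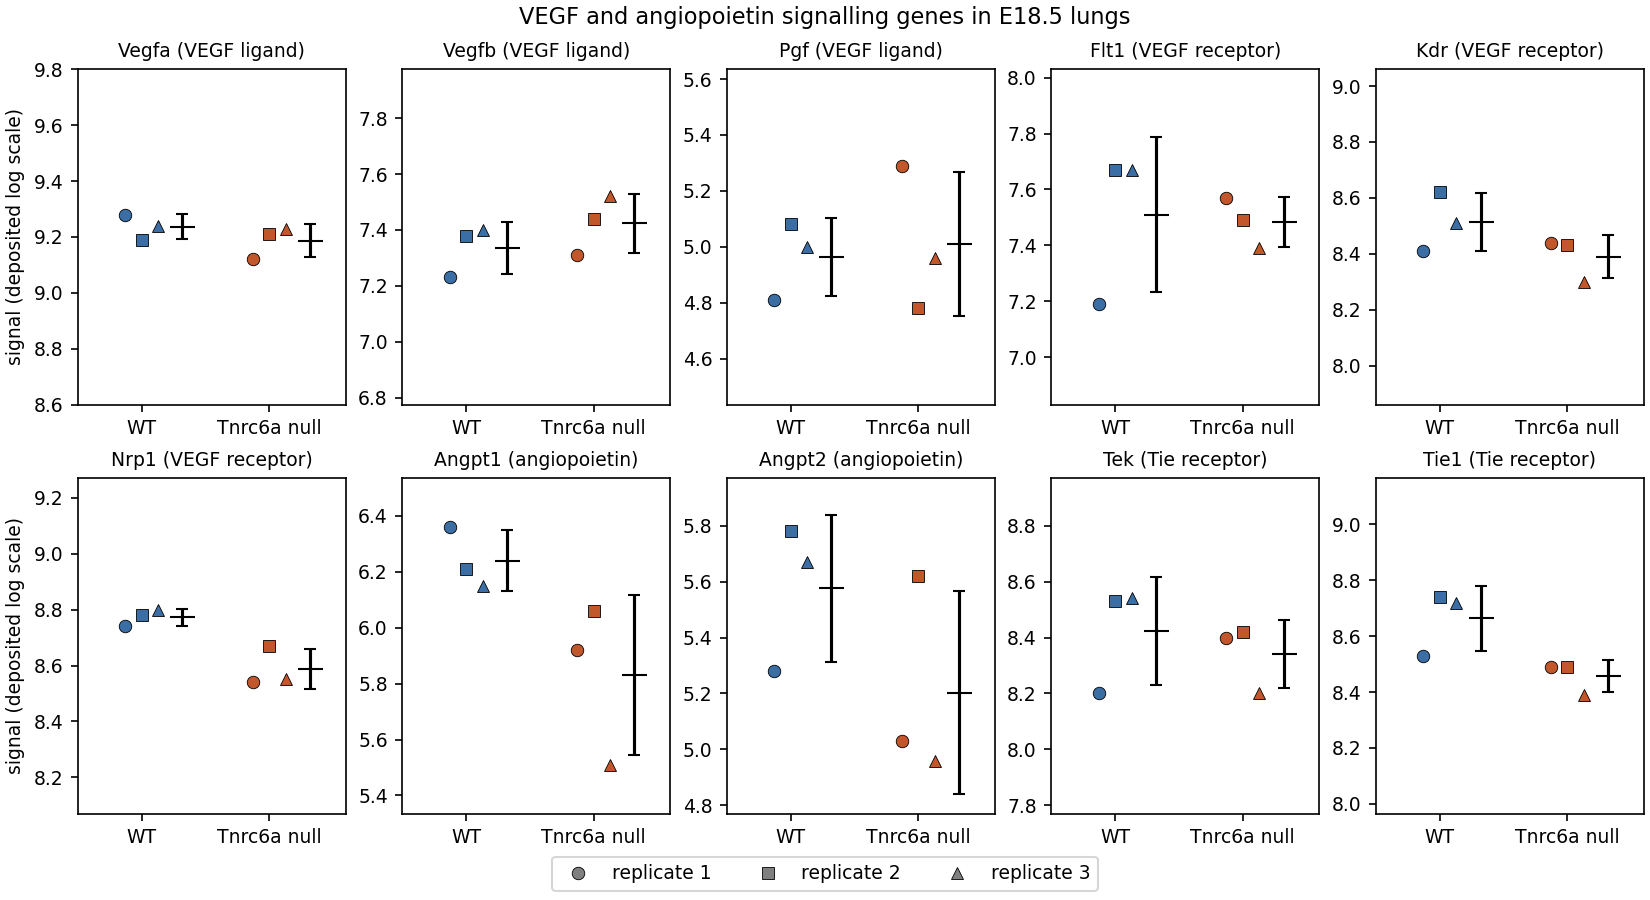
Signal of the 10 genes in each lung, on the deposited log scale (vertical axes, each spanning the same width and starting at its own level), with WT in blue, *Tnrc6a* null in red, marker shapes for replicate numbers, and bars for the mean ± SD of 3 lungs. For *Nrp1*, *Angpt1* and *Tie1* every null lung lies below every WT lung, and for the other 7 genes the genotypes overlap.

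Among the ligands of the VEGF receptors, *Vegfa*, the main angiogenic ligand of the developing lung, stood at 9.28, 9.19 and 9.24 in WT and at 9.12, 9.21 and 9.23 in null lungs. All 6 lungs lay within a narrow band and the genotypes overlapped. The difference was -0.05 ± 0.0693 (SE), with a 95% interval of -0.21 to 0.11, and limma gave an adjusted p of 0.938. The interval spans both directions, so a shift within it was not detectable with 6 arrays, and leaving out null replicate 1 brought the difference to -0.02. *Vegfb*, a ligand of FLT1 that is linked to fatty acid uptake by endothelium, stood at 7.23, 7.38 and 7.40 in WT and at 7.31, 7.44 and 7.52 in null lungs. WT replicate 1 was the lowest and null replicate 3 the highest, and the genotypes overlapped. Its difference was 0.09 ± 0.0881 (SE), with a limma adjusted p of 0.926. *Pgf*, placental growth factor, which also binds FLT1, stood at 4.81, 5.08 and 5.0 in WT and at 5.29, 4.78 and 4.96 in null lungs, where replicate 1 was the highest of the 6 and replicate 2 the lowest. The difference of 0.05 ± 0.149 (SE) was smaller than the SD of the null lungs, 0.259, and limma gave an adjusted p of 0.976.

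The receptors that bind these ligands had lower means in the null lungs. *Flt1*, the high-affinity VEGF-A receptor with weak kinase activity, stood at 7.19, 7.67 and 7.67 in WT and at 7.57, 7.49 and 7.39 in null lungs. WT replicate 1 was the lowest of all 6, and the null lungs lay between it and the other WT lungs. Its difference of -0.03 ± 0.133 (SE) was a fraction of the SD of the WT lungs, 0.277 (limma, adjusted p = 0.984). *Kdr*, the main signalling receptor for VEGF-A, stood at 8.41, 8.62 and 8.51 in WT and at 8.44, 8.43 and 8.30 in null lungs. Only WT replicate 1 lay among the null lungs. The difference was -0.12 ± 0.0823 (SE), with a 95% interval of -0.31 to 0.06 (limma, adjusted p = 0.898), and it ran from -0.18 without WT replicate 1 to -0.07 without WT replicate 2. *Nrp1*, the coreceptor for VEGF-A and semaphorins, stood at 8.74, 8.78 and 8.80 in WT and at 8.54, 8.67 and 8.55 in null lungs. The 3 WT lungs were tight (SD 0.03) and every null lung lay below them. The difference was -0.19 ± 0.0709 (SE), with a 95% interval of -0.35 to -0.03, and limma gave an unadjusted p of 0.0280 and an adjusted p of 0.890.

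The angiopoietins had the largest mean differences of the 10 genes. *Angpt1*, the agonist of TEK, stood at 6.36, 6.21 and 6.15 in WT and at 5.92, 6.06 and 5.51 in null lungs. All null values were under all WT values, and null replicate 3 lay apart from the other null lungs. The difference was -0.41 ± 0.144 (SE), with a 95% interval of -0.74 to -0.08, and limma gave an unadjusted p of 0.0199 and an adjusted p of 0.890. Leaving out null replicate 3 brought the difference to -0.25, and leaving out null replicate 2 brought it to -0.53. *Angpt2*, the context-dependent ligand released by endothelial cells, stood at 5.28, 5.78 and 5.67 in WT and at 5.03, 5.62 and 4.96 in null lungs. Null replicate 2 lay among the WT lungs, whereas the other null lungs were below all WT lungs. Its difference of -0.37 ± 0.197 (SE) had a 95% interval of -0.82 to 0.07 and a limma adjusted p of 0.890. It ran from -0.58 without null replicate 2 to -0.25 without null replicate 3, and stood at -0.52 without WT replicate 1.

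Of the Tie receptors, *Tek*, the receptor of both angiopoietins, stood at 8.20, 8.53 and 8.54 in WT and at 8.40, 8.42 and 8.20 in null lungs. WT replicate 1 and null replicate 3 shared the lowest value. The difference was -0.08 ± 0.110 (SE; limma, adjusted p = 0.936), and it ran from -0.20 without WT replicate 1 to -0.01 without null replicate 3. *Tie1*, the partner of TEK, stood at 8.53, 8.74 and 8.72 in WT and at 8.49, 8.49 and 8.39 in null lungs. Here the lowest WT lung, replicate 1, was still above the highest null lung, by a small margin. The difference was -0.21 ± 0.0818 (SE), with a 95% interval of -0.39 to -0.02, and limma gave an unadjusted p of 0.0333 and an adjusted p of 0.890.

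**Figure D2:**
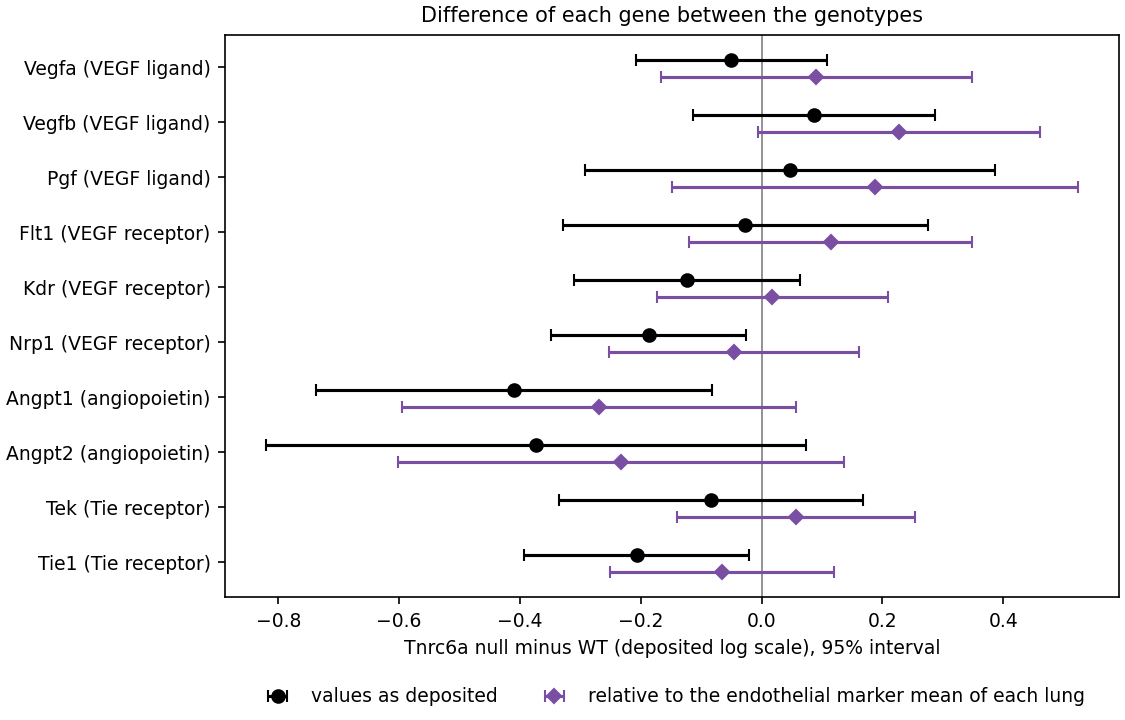
Difference of each gene, *Tnrc6a* null minus WT on the deposited log scale (horizontal axis), with 95% intervals from limma, for the values as deposited (black circles) and after subtracting the mean of 18 endothelial markers in each lung (purple diamonds). As deposited, the intervals of *Nrp1*, *Angpt1* and *Tie1* lie below 0, and after the subtraction the interval of every gene crosses 0.

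The receptors are made mostly by endothelial cells, so their values were set beside those of 18 endothelial marker genes, none of which is among the 10. All 18 were measured, and their lowest value in any lung was 6.20, above the median of every array. The null mean was lower for 16 of the 18, all of which lie among the genes above the median signal, where 66.5% had a lower null mean. An unadjusted limma p under 0.05 was met by 4 of the 18, against 5.42% of all genes, and 0 were called after adjustment. The median difference of the markers was -0.16, and that of the 5 receptors was -0.12. *Cdh5*, the cadherin of endothelial junctions, differed by -0.23, *Pecam1*, an adhesion molecule of the same junctions, by -0.18, *Eng*, a TGF-β coreceptor, by -0.23, and *Clec14a*, an endothelial lectin, by -0.26. The mean level of the 18 markers was 8.11, 8.30 and 8.31 in WT and 8.13, 8.17 and 8.01 in null lungs.

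When the marker mean of each lung was subtracted from each gene of that lung, the differences of the receptors came to 0.11 for *Flt1*, 0.02 for *Kdr*, -0.05 for *Nrp1*, 0.06 for *Tek* and -0.07 for *Tie1*. This centring raises the median of all genes to 0.14, so each of these values is to be read against that shift. *Angpt1* stood at -0.27 ± 0.144 (SE) after the subtraction (limma, adjusted p = 0.434) and *Angpt2* at -0.23 ± 0.163 (adjusted p from limma 0.511), so they kept the largest negative differences of the 10. *Vegfa* turned positive at 0.09, *Pgf* stood at 0.19, and *Vegfb* stood at 0.23 ± 0.103 (SE) with all null lungs above all WT lungs, a lack of overlap seen, in either direction, in 20.8% of all genes. Limma gave *Vegfb* an adjusted p of 0.397, the lowest of the 10 under this centring. *Tie1* was the only other of the 10 whose genotypes did not overlap after it, with all null lungs lower (limma, adjusted p = 0.688). Of all 19938 genes, 4140 did not overlap under this centring, and in 180 of these the null lungs were lower.

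**Figure D3:**
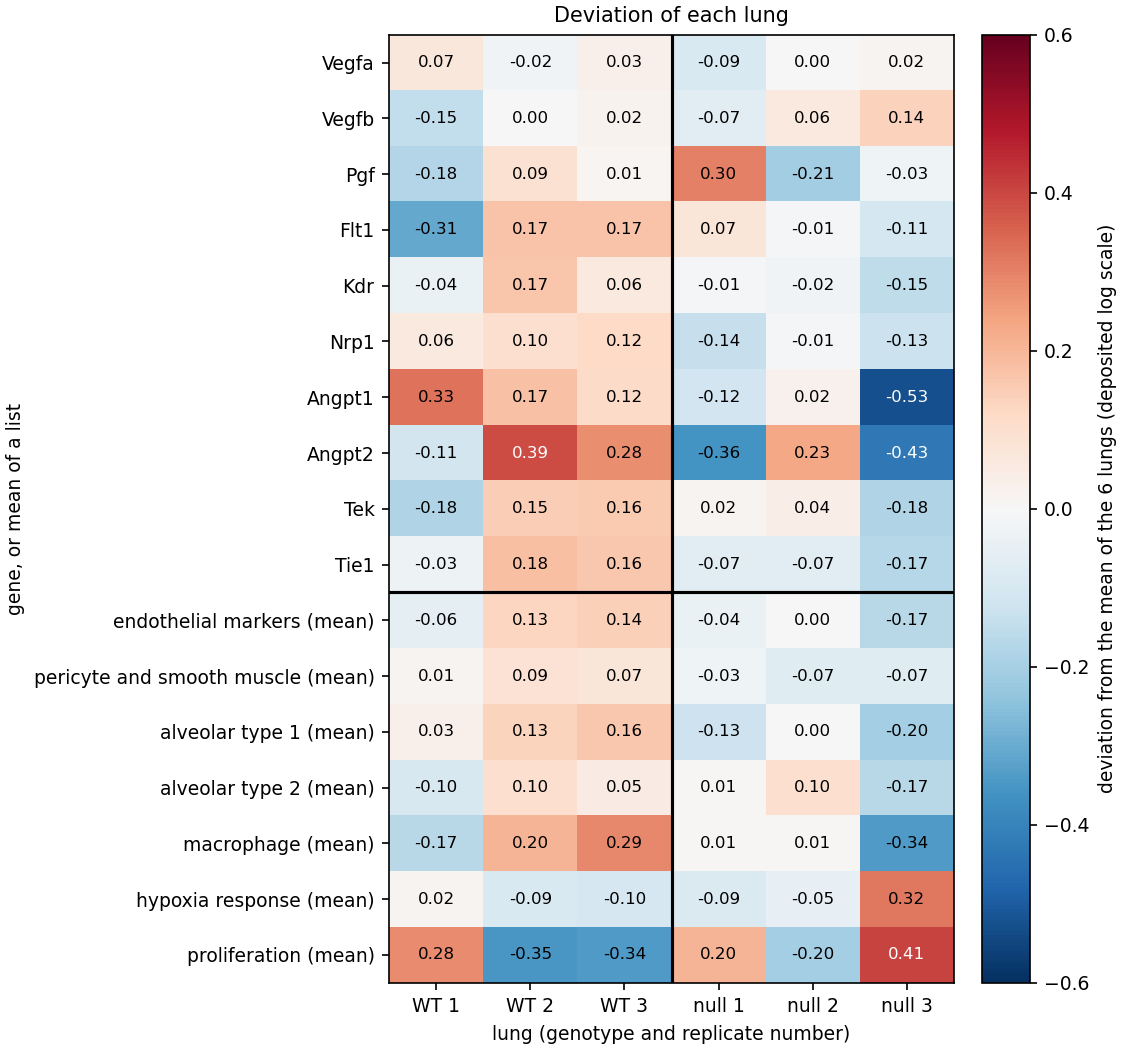
Deviation of each lung (columns) from the average of all 6 (deposited log scale), for the 10 genes (upper rows) and for the mean of cell type and response lists (lower rows), in blue where lower and red where higher. WT 1 and null 3 lie below 0 for *Flt1*, *Kdr*, *Tek* and *Tie1* and above 0 for the proliferation list, whereas *Angpt1* lies above 0 in WT 1 and below 0 in null 3.

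Across lungs, WT replicate 1 lay below the 6-lung mean for *Flt1*, *Kdr*, *Tek* and *Tie1* and above it for *Nrp1*, while null replicate 3 lay below it for all 5 receptors. For these receptors together, the mean deviation from the 6-lung mean was -0.100, 0.154 and 0.134 in the WT lungs and -0.026, -0.014 and -0.148 in the null lungs. WT replicate 1 thus lay among the null lungs, and null replicate 3 was the lowest lung for 5 of the 10 genes. For the endothelial markers null replicate 3 was also the lowest lung and WT replicates 2 and 3 the highest, with -0.059, 0.129 and 0.141 in WT and -0.041, -0.004 and -0.167 in null lungs. Proliferation genes ran the other way, at 0.283, -0.349 and -0.338 in WT and 0.202, -0.203 and 0.405 in null lungs. Macrophage markers were low in the same pair of lungs, at -0.168 in WT replicate 1 and -0.338 in null replicate 3. The part of these differences between embryos in the results for the 10 genes was not tested.

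WT replicate 1 and null replicate 3 were singled out from these same values, so leaving them out is a description and not a test. Without those 2 lungs, the remaining pairs of lungs did not overlap for 7 of the 10 genes, all lower in null. These are the 5 receptors and both angiopoietins. Over all genes 43.6% did not overlap in that comparison of 2 lungs with 2, and 25.3% were lower with no overlap. *Tie1* then stood at -0.24 ± 0.0551 (SE; limma, adjusted p = 0.121), *Nrp1* at -0.19 ± 0.0628 (limma, adjusted p = 0.223) and *Angpt2* at -0.40 ± 0.175 (limma, adjusted p = 0.341). These 3 had an unadjusted p under 0.05, as did 14.5% of all genes. *Angpt1* stood at -0.19, *Flt1* at -0.14, *Kdr* and *Tek* at -0.13, and the 3 VEGF ligands between -0.05 and 0.00. None of the 10 was called there, while 23 genes were called over all. With WT replicate 1 alone left out, the same 7 genes did not overlap, against 26.7% of all genes in either direction and 18.2% with the null lungs lower, and *Tie1* stood at -0.27 ± 0.0702 (SE; limma, adjusted p = 0.502). For *Flt1*, *Kdr*, *Tek* and *Angpt2* it was the only WT lung not above all null lungs, so leaving it out ends their overlap by construction. With null replicate 3 alone left out, 3 of the 10 genes did not overlap, as did 4912 of all 19938 genes.

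**Figure D4:**
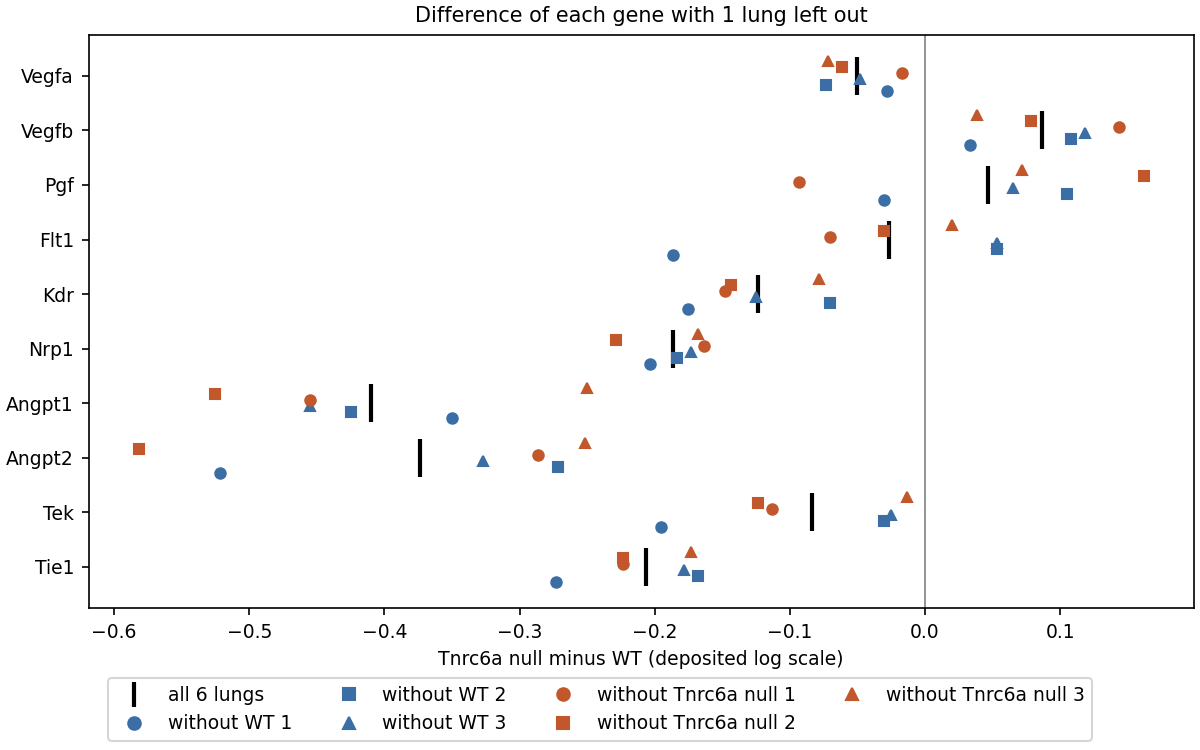
Difference of each gene, *Tnrc6a* null minus WT on the deposited log scale (horizontal axis), with all 6 lungs (black bars) and with each lung left out in turn (blue, a WT lung left out; red, a null lung left out; shapes give the replicate number). *Nrp1*, *Tie1*, *Angpt1*, *Angpt2*, *Kdr*, *Tek* and *Vegfa* stay below 0 throughout, whereas *Flt1* and *Pgf* lie on both sides of 0.

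The pattern over the 6 lungs also shows which of the genes vary alike, and these correlations are descriptions over 6 lungs, WT replicate 1 and null replicate 3 among them. Among the receptors, the correlations ran from 0.223, for *Flt1* with *Nrp1*, to 0.924, for *Kdr* with *Tie1*, with *Flt1* and *Tek* at 0.923 and *Nrp1* and *Tie1* at 0.856. *Nrp1* and *Angpt2* also correlated at 0.856, whereas *Vegfa* and *Pgf* ran oppositely at -0.821. Among the genes of all lists used here, the one most like *Nrp1* was the endothelial lectin *Clec14a* (0.974), the one most like *Angpt1* was *Tcf21*, a mesenchymal transcription factor (0.963), and the one most like *Angpt2* was *Flt4*, the VEGF-C receptor (0.982). The closest to *Tie1* was the chemokine receptor *Cxcr4* (0.975), to *Tek* the semaphorin receptor *Plxna4* (0.990), to *Flt1* the endothelial transcription factor *Klf4* (0.979) and to *Kdr* *Tnip2*, an inhibitor of NF-κB signalling (0.974). *Vegfb* was most like *Gpihbp1* (0.984), which anchors lipoprotein lipase on capillaries, *Vegfa* was most like *Nkx2-1* (0.932), a lung epithelial transcription factor, and *Pgf* was most like *Nppa* (0.951), a natriuretic peptide gene. All 6 *Nppa* values, 3.96 to 4.30, lie below the array medians, and those of *Pgf* lie near them. Each partner was picked as the highest r among all listed genes over 6 lungs, so the choice itself favours high values. No shared regulation or cell source was tested.

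Endothelial genes are commonly driven by ETS factors, whose core site is GGAA. The promoters of 8 of the genes, those in the RefSeq table used (GRCm38.p6), were searched for GGAAG, a longer form of that core. Both strands were searched (CTTCC on the other), in the 250 bases before and 50 after the transcription start. Sites with another base after GGAA were not counted, so 0 matches does not mean that a window lacks the core. The promoters of 4 receptors are shown because they span the range of this count among the 8 genes. Each match is in capitals, and the strand of the gene is printed 5′ to 3′.
Tie1, chr4:118489800-118490099, minus strand: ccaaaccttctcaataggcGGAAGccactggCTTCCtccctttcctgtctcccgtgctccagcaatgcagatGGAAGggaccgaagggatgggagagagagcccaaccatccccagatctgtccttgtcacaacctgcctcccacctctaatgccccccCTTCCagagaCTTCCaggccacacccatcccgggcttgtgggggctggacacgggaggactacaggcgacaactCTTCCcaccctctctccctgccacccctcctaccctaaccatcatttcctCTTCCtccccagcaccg
Nrp1, chr8:128358823-128359122, plus strand: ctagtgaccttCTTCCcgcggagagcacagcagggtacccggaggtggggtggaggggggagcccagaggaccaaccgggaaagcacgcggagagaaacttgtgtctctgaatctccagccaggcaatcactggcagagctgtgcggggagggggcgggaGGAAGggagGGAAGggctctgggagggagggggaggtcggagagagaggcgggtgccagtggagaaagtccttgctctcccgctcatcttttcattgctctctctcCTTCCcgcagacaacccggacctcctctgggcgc
Kdr, chr5:75978406-75978705, minus strand: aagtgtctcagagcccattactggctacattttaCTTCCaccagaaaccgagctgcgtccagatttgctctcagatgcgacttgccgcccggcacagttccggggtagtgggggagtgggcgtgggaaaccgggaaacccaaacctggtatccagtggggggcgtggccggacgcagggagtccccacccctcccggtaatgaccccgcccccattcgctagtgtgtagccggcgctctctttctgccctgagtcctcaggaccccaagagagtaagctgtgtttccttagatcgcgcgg
Tek, chr4:94739039-94739338, plus strand: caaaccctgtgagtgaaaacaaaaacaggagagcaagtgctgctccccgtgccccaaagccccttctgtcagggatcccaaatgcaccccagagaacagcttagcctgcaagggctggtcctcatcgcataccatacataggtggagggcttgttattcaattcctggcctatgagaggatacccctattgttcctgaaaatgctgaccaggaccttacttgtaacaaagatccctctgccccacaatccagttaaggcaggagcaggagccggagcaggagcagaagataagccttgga
These windows hold 7 matches for *Tie1*, 4 for *Nrp1*, 1 for *Kdr* and 0 for *Tek*. The windows not shown hold 3 for *Flt1*, 1 and 2 for *Vegfa*, 1 and 0 for *Pgf* and 0 for *Vegfb*. Of 32851 promoters in the table, 71.4% hold at least 1 match and 16.5% hold 3 or more. The hypoxia response core ACGTG, searched on both strands and found in 19.6% of promoters, is in none of the 4 windows shown. Among the windows of the 8 genes it has 1 match, in a *Vegfa* window (chr17:46025114-46025413). On the minus strand of the gene, that window lies downstream of the other *Vegfa* window (chr17:46032328-46032627), which has 0 matches. DNA outside the windows was not searched, so 0 matches does not mean that a gene lacks the hypoxia site. A match is a description of letters and not a bound site.

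Beyond the 10 genes, 93 further genes of the pathway were measured, in lists for the lymphatic branch, semaphorins and plexins, receptor modulators, signal transducers, the miR-126 axis, VEGF-induced transcripts, endothelial transcription factors, oxygen sensing and hypoxia response. Of the 93, 0 were called by limma after adjustment, 60 had a lower and 32 a higher null mean, and 5 had an unadjusted p under 0.05, all with lower null means. These shares are near the background, which was 5.42% of all genes for an unadjusted p under 0.05, and for a lower null mean 50.8% of all genes and 66.5% of those above the median signal. Beside each list's median stands its range with 1 lung left out in turn. In the lymphatic branch, 4 of 6 genes had lower null means (median -0.12, range -0.16 without WT replicate 1 to -0.07 without WT replicate 2), and *Flt4*, the receptor of VEGF-C, differed by -0.28. Semaphorins and plexins, the other partners of neuropilins, had lower null means in 10 of 12 genes (median -0.09, range -0.13 without WT replicate 1 to -0.05 without null replicate 3). *Sema3f*, a ligand of NRP2 that repels vessels, stood at 7.30, 7.40 and 7.46 in WT and at 6.99, 6.98 and 7.14 in null lungs. All null values were under all WT values, and the difference of -0.35 ± 0.0842 (SE) had the smallest unadjusted p of these 93, 0.00266 in limma, with an adjusted p of 0.890. *Sema3c*, which binds both neuropilins, differed by -0.33 and *Nrp2*, its coreceptor, by -0.14, with no overlap in either.

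Receptor modulators had lower null means in 5 of 8 genes (median -0.16, range -0.24 without WT replicate 1 to -0.06 without null replicate 3), among them *Ptpn1*, a phosphatase that acts on KDR, at -0.30 and *Itga5*, the fibronectin receptor subunit, at -0.20. Without null replicate 3 these stood at -0.19 and -0.12. Signal transducers had lower null means in 17 of 20 measured genes (median -0.11, range -0.14 to -0.10), with the catalytic kinase subunit *Pik3ca* at -0.18 and the kinase *Akt1* at -0.16, both with every null lung below every WT lung. Endothelial transcription factors were lower in mean in 9 of 13 (median -0.11, range -0.18 without null replicate 1 to -0.03 without null replicate 3), with *Ets1* at -0.16 and *Sox17*, an arterial factor, at -0.33 (-0.13 without null replicate 3). VEGF-induced transcripts were lower in mean in 6 of 9 (median -0.07, range -0.15 without null replicate 2 to 0.02 without WT replicate 3), with the guidance receptor *Unc5b* at -0.18 and *Cxcr4* at -0.23. Each of these named genes had a limma adjusted p of 0.890.

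The miR-126 axis is the one list that joins the pathway to silencing by miRNAs. miR-126 is an endothelial miRNA from an intron of *Egfl7* that is known to restrain *Spred1* and *Pik3r2*, both inhibitors of VEGF signalling. Its mature strand in RefSeq (GRCm38.p6, chr2:26591402-26591423, plus strand) is shown with the seed, bases 2 to 8, in capitals.
miR-126a-3p: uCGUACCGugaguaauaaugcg
The probe set of *Mir126a*, which cannot tell the mature strand from its precursor, stood at 3.58, 3.87 and 3.75 in WT and at 4.25, 3.89 and 3.71 in null lungs, and the genotypes overlapped. Its difference was 0.22 ± 0.171 (SE; limma, adjusted p = 0.899), and 0.07 without null replicate 1. All 6 values lie below the array medians. The host gene *Egfl7* stood at 8.51, 8.61 and 8.64 in WT and at 8.72, 8.66 and 8.72 in null lungs, with every null lung higher by a small margin. That difference was 0.11 ± 0.0706 (SE; limma, adjusted p = 0.896). The targets *Spred1* and *Pik3r2* differed by -0.07 and -0.10, with overlap in both. Without null replicate 3 they stood at -0.05 each, and without WT replicate 1 *Egfl7* stood at 0.08. *Vcam1*, the remaining gene of the list, differed by 0.03, with overlap. In the list as a whole, 2 of 5 genes had lower and 3 had higher null means.

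Oxygen sensing and hypoxia genes lie upstream of *Vegfa* and beside it. *Epas1*, which codes for the oxygen-regulated transcription factor HIF-2α, stood at 9.20, 9.72 and 9.66 in WT and at 9.17, 9.30 and 8.52 in null lungs. Null replicate 3 was far below the others and WT replicate 1 lay among the null lungs. The difference was -0.53 ± 0.208 (SE; limma, adjusted p = 0.890), and it stood at -0.29 without null replicate 3 (limma, adjusted p = 0.643). Without both of those lungs it stood at -0.46 (limma, adjusted p = 0.0446), the one alternative of 17 in which it passed the adjusted threshold. Those 2 lungs were singled out from these same values, so that is a description and not a test. In that setting 23 genes were called over all, and 14.5% of all genes had an unadjusted limma p under 0.05. Of 9 oxygen sensing genes, 6 had lower null means (median -0.05, range -0.10 without null replicate 3 to -0.04 without WT replicate 1), with *Egln3*, a prolyl hydroxylase induced by hypoxia, at 0.25 (0.06 without null replicate 3) and *Hif1an*, an asparaginyl hydroxylase, at -0.16. The hypoxia response list, transcripts that HIF factors raise in low oxygen, had a higher null mean in 10 of 11 genes (median 0.14). Without null replicate 3, 5 of the 11 had a lower null mean and the median was 0.01. Its mean deviation was 0.316 in null replicate 3, the highest of the 6 lungs. *Ankrd37* differed by 0.20, *Bnip3*, a mitophagy receptor, by 0.15 and the glucose transporter *Slc2a1* by 0.20, with *Slc2a1* at 9.09 in null replicate 3 and between 8.44 and 8.66 in the other lungs. Without null replicate 3 *Slc2a1* differed by 0.01, and without null replicate 2 *Bnip3* differed by 0.09. *Vegfa*, itself a target of HIF factors, stood at 9.23 in that lung, within the range of the others.

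**Figure D5:**
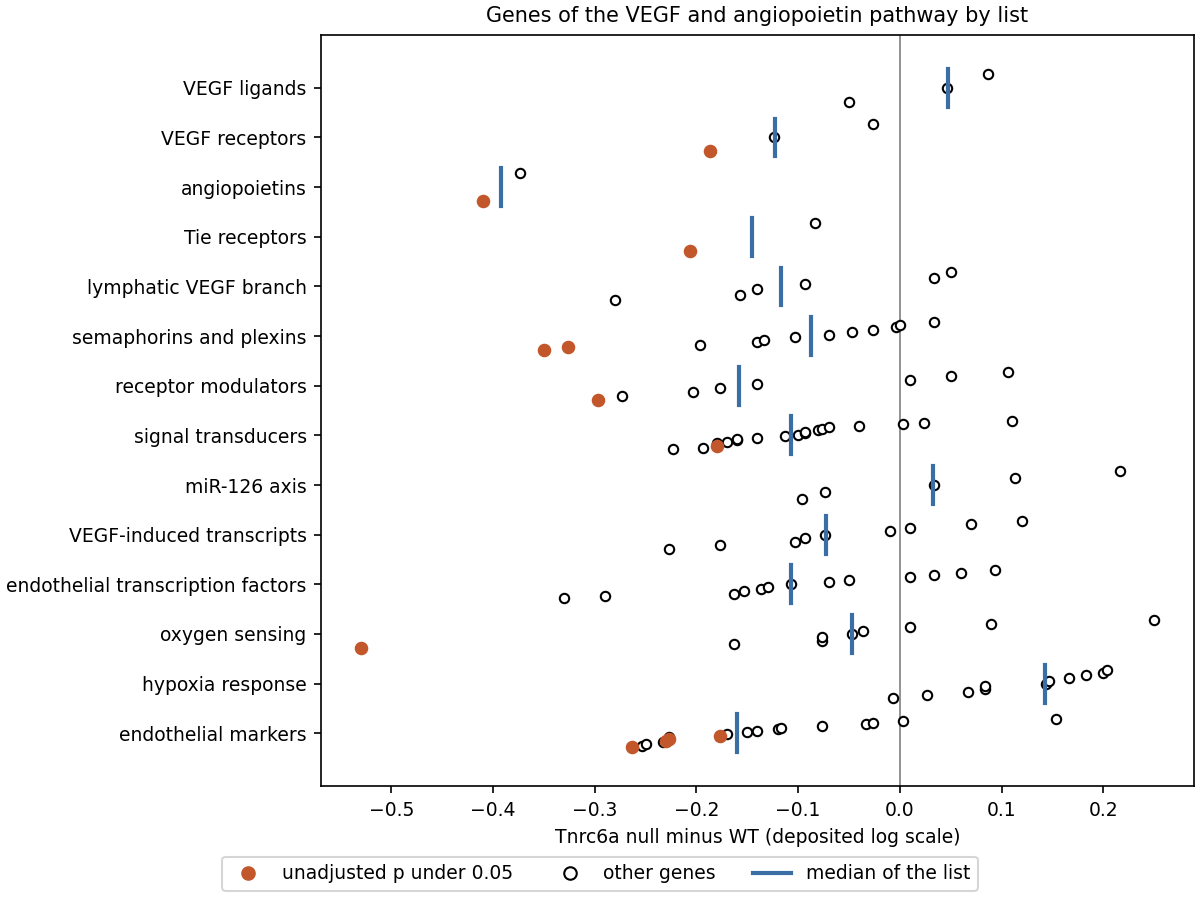
Difference of each gene of the VEGF and angiopoietin lists, *Tnrc6a* null minus WT on the deposited log scale (horizontal axis), 1 row for each list, with vertical spread only to keep points apart, red for an unadjusted limma p under 0.05 and a blue bar for the list's median. Most lists have their median below 0, whereas the VEGF ligands, the miR-126 axis and the hypoxia response have theirs above 0, that of the VEGF ligands falling to -0.03 without WT replicate 1 and that of the hypoxia response to 0.01 without null replicate 3.

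Other cell types of the lung were listed beside the pathway, because ligands come from several of them. The counts below stand beside a lower null mean in 50.8% of all genes and in 66.5% of those above the median signal. Pericyte and smooth muscle markers had lower null means in 8 of 11 genes (median -0.12, range -0.18 without null replicate 2 to -0.07 without null replicate 3), with *Pdgfrb*, the receptor that recruits pericytes, at -0.27 and *Notch3* at -0.24. Fibroblast markers were lower in mean in 7 of 7 (median -0.11, range -0.13 to -0.10), with *Tcf21* at -0.22, and alveolar type 1 markers in 8 of 8 (median -0.22, range -0.27 to -0.17), with *Clic5* at -0.30 and *Aqp5* at -0.25. Macrophage markers were lower in mean in 7 of 7 (median -0.19), with *Mrc1* at -0.42 and *Adgre1* at -0.51, and in 4 of 7 without WT replicate 3 (median -0.04). Without null replicate 3, *Adgre1* stood at -0.34. Alveolar type 2 markers were lower in mean in 5 of 10 (median -0.03, range -0.10 without null replicate 2 to 0.06 without null replicate 3) and airway markers in 4 of 4 (median -0.07, range -0.10 to -0.05). Heart markers were lower in mean in 6 of 7 (median -0.14, -0.01 without null replicate 3). Megakaryocyte and erythroid markers had medians of 0.01 and 0.14, which came to -0.18 and -0.02 without WT replicate 1. Proliferation genes had a higher null mean in 9 of 9 (median 0.25, range 0.10 without null replicate 3 to 0.50 without WT replicate 1), with *Cdk1* at 0.30 and *Ccnb2* at 0.36. No gene of these lists was called by limma after adjustment, and the part of the cell types in the differences of the 10 genes was not tested.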

How the data were processed

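RNA of 6 whole lungs, 3 WT and 3 *Tnrc6a* null, was profiled on Affymetrix whole-transcript gene arrays. The authors deposited a table of log2 values (so named by the labels), with 35045 probe sets in rows and 1 column per lung. MAS5 is named in the submitters' processing notes, with version and settings not given in the sources used here. Genotype and replicate came from the labels. Scanner files were not analysed here, so dim probe sets were kept and background is unknown, and the number of arrays limits the precision.

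The 21789 probe sets with 1 gene symbol were kept, against 1621 with several and 11635 with none, and 21698 of them were brought to current symbols by Entrez ID. The brightest stood for a gene (999 genes had several), and values were used as deposited. A limma model (version 3.58.1, R 4.3.3, lmFit and eBayes with trend) was fitted to all 19938 genes, two-sided, with Benjamini-Hochberg adjustment at 0.05 and intervals at 95%. The procedure was tested on simulated data. Summaries and plots were made in Python 3.11.15 with pandas 2.3.3 and matplotlib 3.10.9. The lists name 200 genes, of which 192 were measured. The text names the 10 genes, *Tnrc6a* and some of the up to 4 genes with the smallest unadjusted p in each list. It also names the listed gene most correlated with each of the 10, and *Vcam1*, the remaining gene of the miR-126 list. The members and lists were chosen with earlier results of these data known. As alternatives, the fit was repeated without the trend, with robust eBayes, after quantile normalization, after centring on the median or on endothelial markers, for genes above the median signal, with probe sets averaged, with array weights, with a block for replicate number, with the methods' t-test, and with lungs left out.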

Additional observations from a re-analysis of the deposited data

How the results depend on the processing

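Of 778 differences recomputed for 46 named genes under 17 alternatives, 759 kept their direction and their side of the adjusted threshold. Part of this count is fixed in advance. The fit without the trend, robust eBayes, the replicate block and the t-test change the error of a difference and not its size. None of the 10 genes was called under any of them, and the lowest adjusted p from limma was 0.121, for *Tie1* without WT replicate 1 and null replicate 3.

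Over all genes, 1 was called, 2 with array weights, 0 with the methods' t-test, 23 without WT replicate 1 and null replicate 3, and 0 to 1 with 1 lung left out. *Tnrc6a* missed the adjusted threshold with the t-test (-1.93, adjusted p = 0.551) and without WT replicate 3 (-1.96, limma adjusted p = 0.0552), and ran from -2.01 to -1.805 with 1 lung left out.

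Of the 10, those with an unadjusted p under 0.05, 3 as reported, came to 1 without the trend, with quantile normalization and with the t-test, to 0 with endothelial centring, and to 1 to 3 with 1 lung left out. An unadjusted p under 0.05 was met by *Angpt1* in 13 of 17 alternatives, *Nrp1* in 9, *Tie1* in 7 and *Angpt2* in 4 of 16. Genes with no overlap, 3 of the 10 as reported, came to 1 with quantile normalization and 3 to 7 with 1 lung left out (7 without WT replicate 1). They came to 7 without WT replicate 1 and null replicate 3. The share of all genes with no overlap was 10.2% as reported, 26.7% without WT replicate 1 and 43.6% without both lungs. With quantile normalization it was 1868 of all 19938 genes. Endothelial centring left 4 of the 10 lower, with a median of 0.038, and turned *Vegfa* (0.0909), *Flt1* (0.1143), *Kdr* (0.0176), *Tek* (0.0576), *Nrp2* (0.0009), *Spred1* (0.0676) and *Pik3r2* (0.0443), raising all genes alike. *Flt1* also turned with quantile normalization (0.0183) and ran from -0.1867 to 0.0533 with lungs left out, above 0 without WT replicate 2, WT replicate 3 or null replicate 3. *Pgf* turned with array weights (-0.0427) and ran from -0.0933 to 0.1617 with lungs left out, below 0 without WT replicate 1 or null replicate 1 and, at -0.005, without WT replicate 1 and null replicate 3. *Vegfb* ran from 0.0333 to 0.1433 with 1 lung left out, and stood at -0.015 without those 2 lungs and at 0.2276 with endothelial centring. The causes were not tested.

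Deviations of same-numbered lungs correlated at -0.295, 0.361 and -0.162, and the highest r, 0.538, was for WT replicate 1 with null replicate 3. These values cannot decide whether the numbers pair the lungs, because the lungs are few and no label gives the litter. With the replicate number as a block, 1 gene was called, and 0 of the 10.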
